A study of Rattus norvegicus with 6 samples.

Results

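The rows described here are the microRNA rows that stood above a fixed level on an expression array of rat neuroepithelial progenitor cells. They are the main-type rows whose gene symbol starts with Mir and a digit, or with Mirlet, selected on a measured value, the mean over all 6 samples, which had to exceed 6.7 log2 units. This gave 39 of 368 microRNA rows (10.6%), among 20258 named rows that were tested. The members were chosen by this level, so it is given only as a description, and levels of different probe sets do not rank their transcripts. Member means ran from 6.76 to 8.42 with a median of 7.14.

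Neuroepithelial progenitors divide in the neural plate and give rise to the neurons and glia of the neural tube. The series measured total RNA from flow-sorted cells of rat embryos at E10.5, with 3 control and 3 retinoic acid samples, each a pool of biological replicates. Dams of the retinoic acid group were dosed by gavage with 60 mg/kg of all-trans retinoic acid dissolved in olive oil. Dams of the control group were given olive oil without it. The control RNA carried mix 1 of the ERCC ExFold spike-in transcripts and the retinoic acid RNA carried mix 2, so the spike-in mix differed between the groups too. The sources used here do not state the rat strain, the sort gate, the time from dose to collection or the number of litters in a pool. The p-values therefore measure the spread between these pools.

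A microRNA is cut from a hairpin in a longer primary transcript, first by Drosha with Dgcr8 in the nucleus and then by Dicer in the cytoplasm. The mature strand is loaded into an Argonaute protein. Its seed, bases 2 to 8, pairs with target messenger RNAs, so microRNAs with 1 seed form a family. Several hairpins often lie on 1 primary transcript, and many sit inside an intron of a protein-coding host gene. Retinoic acid, the active form of vitamin A, sets positional identity along the neural tube through the Hox genes, and several microRNA genes lie within the Hox clusters.

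The sequences below are those on which the comparisons by family, cluster and strand turn. They are the RefSeq mature sequences of the GRCr8 assembly, written 5′ to 3′ with the seed in capitals. Of the 39 members, 35 matched a mature sequence, and Mir761, Mir3577, Mir598 and Mir383 are named only. The miR-17 seed family holds the first member set, and miR-20a-5p is the product of the member row Mir20a.
rno-miR-20a-5p: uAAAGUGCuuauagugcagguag
rno-miR-17-5p: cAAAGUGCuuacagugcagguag
rno-miR-20b-5p: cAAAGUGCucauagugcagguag
rno-miR-93-5p: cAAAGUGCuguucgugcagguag
rno-miR-106b-5p: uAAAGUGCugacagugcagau

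The miR-92 seed family has 2 member rows, Mir92a-1 and Mir92b, whose differences had opposite signs.
rno-miR-92a-3p: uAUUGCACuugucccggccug
rno-miR-92b-3p: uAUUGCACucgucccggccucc
rno-miR-25-3p: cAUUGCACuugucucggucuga
rno-miR-363-3p: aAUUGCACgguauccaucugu
rno-miR-32-5p: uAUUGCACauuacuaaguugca

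The miR-196 family comes from the Hox clusters, and only miR-196c belongs to a member row.
rno-miR-196c-5p: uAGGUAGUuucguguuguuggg
rno-miR-196b-5p: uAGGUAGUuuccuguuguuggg
rno-miR-196a-5p: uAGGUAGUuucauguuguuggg

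The remaining called rows encode the following microRNAs. The row Mir3582 is listed by RefSeq with the mature name miR-133c.
rno-miR-505-3p: gUCAACACuugcugguuucc
rno-miR-674-5p: gCACUGAGaugggaguggugua
rno-miR-7a-5p: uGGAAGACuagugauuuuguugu
rno-miR-133c: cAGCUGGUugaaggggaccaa

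The last set shows microRNAs of hairpins annotated on opposite strands of 1 locus, including miR-133a, the muscle microRNA on the strand opposite to miR-133c.
rno-miR-133a-3p: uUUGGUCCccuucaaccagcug
rno-miR-210-3p: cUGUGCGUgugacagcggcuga
rno-miR-3574: uCAGCCGCugucacacgcacag
rno-miR-219a-2-3p: aGAAUUGUggcuggacaucugu
rno-miR-219b: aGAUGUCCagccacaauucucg

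The label well detected rests on the level alone, since the file holds no detection calls. The median tested row stood at 6.76, and 51.2% of all tested rows lay above 6.7. Of 1220 olfactory receptor rows, genes of the nasal epithelium, 12 (0.984%) lay above it. The members nearest above the threshold were Mir3569 at 6.76, Mir383 at 6.77 and Mir143 at 6.78. The rows nearest below were Mir3568 at 6.65, Mir3584 at 6.64 and Mir186 at 6.63. Both group means exceeded 6.7 in 38 members, and in Mir3556b only the control mean did (6.93, against 6.64 under retinoic acid). Another 5 microRNA rows had a mean above 6.7 in 1 group only and were not members. Of these, Mir99a and Mir19b-1 were called lower.

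Member rows span 67 to 153 bases in the file, apart from Mir3577, whose row spans 24120 bases. In 30 of the 35 members with a RefSeq hairpin the row and the hairpin had the same length. The mature microRNA, its hairpin and its primary transcript cannot be told apart in such a row. In sorted bulk samples, fewer cells of a type and less RNA per cell cannot be told apart either.

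Under retinoic acid 7 of the 39 microRNA rows were lower and none was higher at an adjusted p under 0.05 (limma, retinoic acid minus control, Benjamini-Hochberg over 20258 rows). The authors' deposited table gave 6 lower and 0 higher at the same threshold. At an unadjusted limma p under 0.05, 2 members were higher, Mir207 and Mir1949. The 7 rows were Mir92a-1, Mir505, Mir20a, Mir3582, Mir196c, Mir674 and Mir7a-1, and they fell 1.28-fold to 1.62-fold. The 7 amount to 17.9% of the members. Over all tested rows 2.06% were called lower, 7.69% higher and 9.75% in either direction. Among the tested rows above 6.7 there were 3.01% lower and 13.8% higher. Calls over the whole array therefore ran mostly upward (78.9% of calls were higher), and this split shifted to 62.2% after quantile normalization and 55.3% after cyclic loess. The median difference was -0.09 log2 units for the members, 0.03 for all tested rows and 0.06 for tested rows above 6.7. The tested rows above 6.7 had a median level of 8.24, so they do not match the members (7.14) in level. From 6.7 to 7.2, 2 of 24 members were called lower, against 82 lower and 94 higher of 1782 tested rows. Median differences in that band were -0.05 and 0.005. Above 7.2, 5 of 15 members were called lower, against 230 lower and 1333 higher of 8584 tested rows. Median differences there were -0.17 and 0.07. Among the 329 microRNA rows at or under 6.7 the median was 0.00, with 14 called lower and 1 higher. Shifting each sample by 6 bright spike-in rows of nominal ratio 1 left 0 members called, and 3 rows higher and 1 lower over the whole array.

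**Figure D1:**
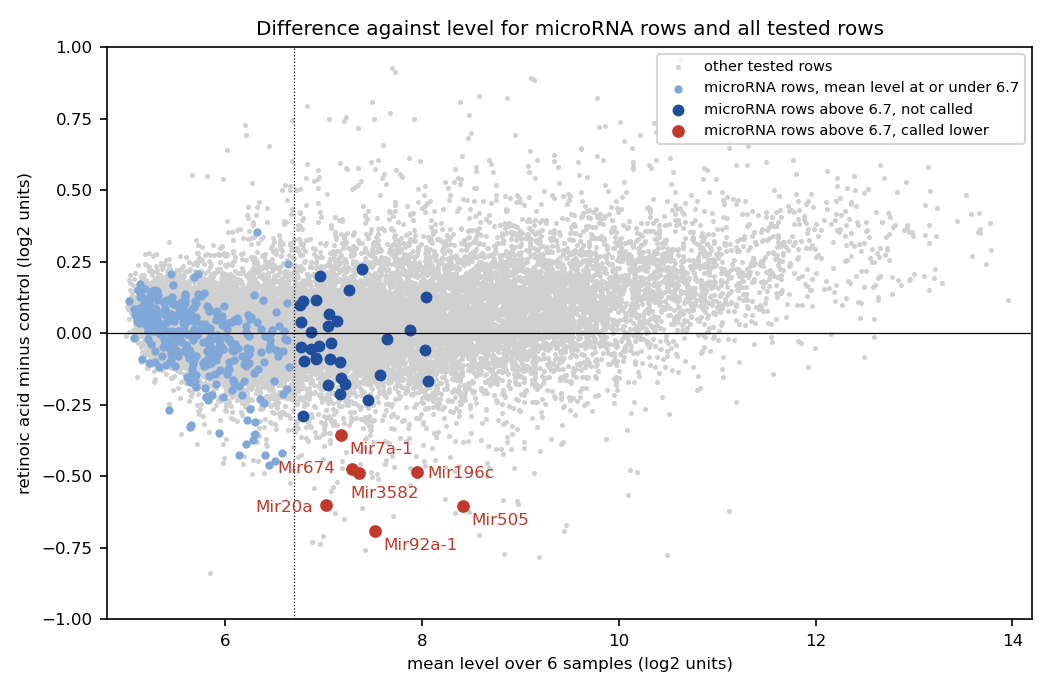
The mean level over 6 samples (x axis, log2 units) is plotted against the retinoic acid minus control difference (y axis, log2 units) for each tested row, with 8 rows outside the plotted range. The 7 called microRNA rows (red) lie between -0.69 and -0.36, and the 32 other members (dark blue) lie between -0.29 and 0.22.

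The control and retinoic acid values did not overlap in 12 members, 11 lower and 1 higher. Over all tested rows 6.95% were apart and lower and 19.0% apart and higher. The 5 rows that were apart without a call were Mir210, Mir598, Mir2964 and Mir3556b, all lower, and Mir1949, higher. In the other 27 members the groups overlapped. Of the 32 uncalled members, 19 had a difference below 0.

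**Figure D2:**
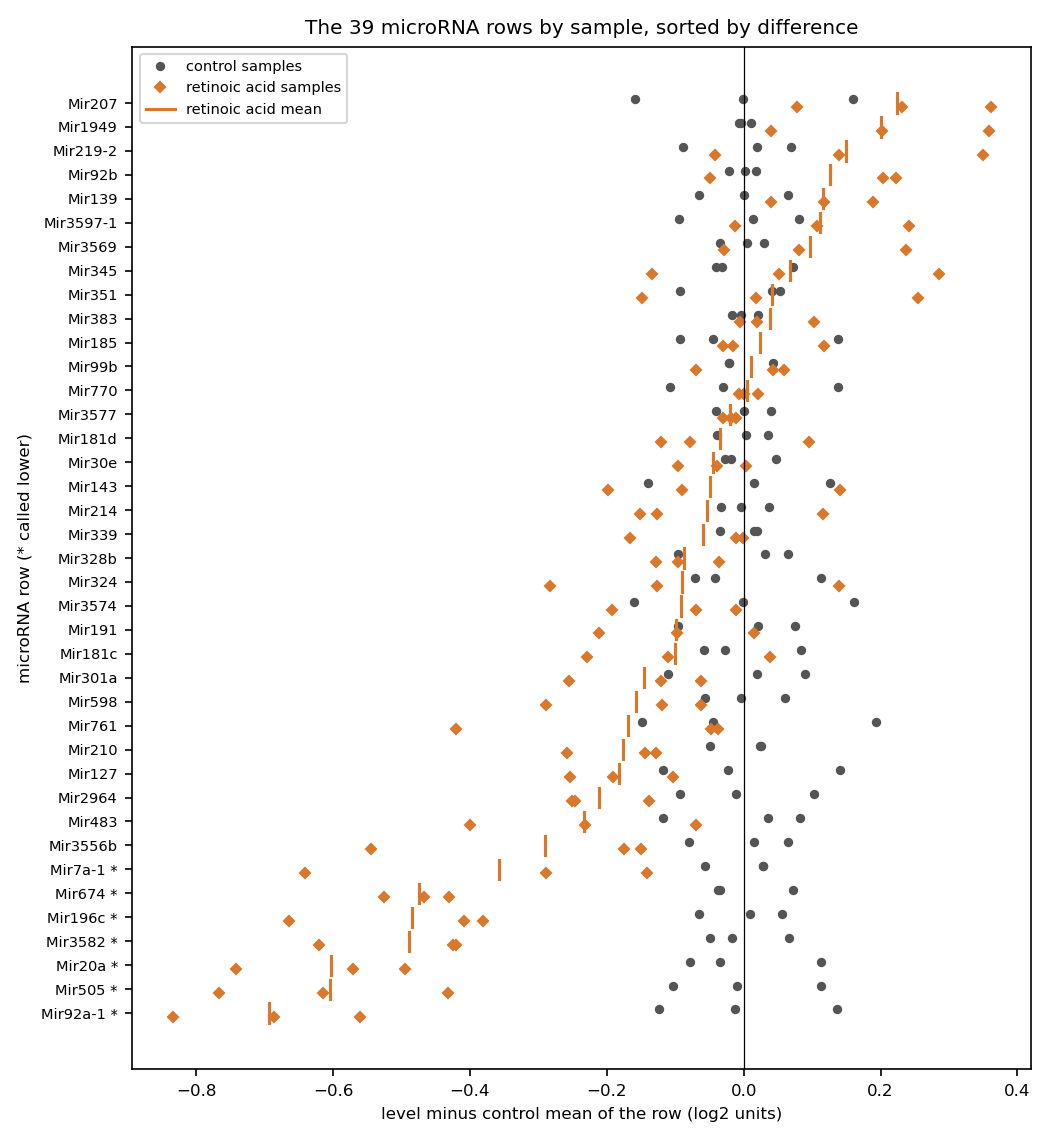
Each of the 39 microRNA rows is shown as its level minus its control mean (x axis, log2 units), with 3 control samples (grey circles), 3 retinoic acid samples (orange diamonds) and the retinoic acid mean (orange bar). An asterisk marks the 7 called rows, in which every retinoic acid sample lies below every control sample.

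Short rows of other kinds fell too. The table holds 634 rows of at most 160 bases that carry no gene name and have a mean above 6.7. In a fit over all 29489 main-type rows, 294 of them (46.4%) were called lower and 25 higher, against 2.80% called lower over all rows, and their median difference was -0.25. The sample medians of these rows were 7.83 to 7.86 in the controls and 7.49 to 7.52 under retinoic acid. For the tested rows the 6 sample medians ran from 6.73 to 6.79. The part of this shift of short rows in the microRNA result was not tested.

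The marker lists also moved between the groups. Over all tested rows 7.69% were called higher and 2.06% lower, and among those above 6.7 the shares were 13.8% and 3.01%. Of 7 measured endothelial markers 6 fell, and their summed level was 11.53 to 11.62 in controls and 10.90 to 11.08 under retinoic acid. All 6 heart muscle markers rose, and their summed level was 9.46 to 9.49 in controls and 10.48 to 10.54 under retinoic acid. Of 12 mesoderm and mesenchyme markers 6 fell and 3 rose, with summed levels of 12.27 to 12.35 and 12.05 to 12.14. Of 6 measured neural progenitor markers 3 rose and none fell, with summed levels of 10.36 to 10.49 and 10.66 to 10.76. Of 6 measured erythroid markers 3 rose, with summed levels of 14.36 to 14.55 and 14.65 to 14.80. Hbe1 (mean level 13.77) and Hbz (13.29) made up most of that sum, and Hbz, Klf1 and Gata1 were not called. Of 6 surface ectoderm markers 3 rose, with summed levels of 10.56 to 10.65 and 10.73 to 10.85. Of 4 measured pluripotent or epiblast markers 2 rose, with summed levels of 10.76 to 10.88 and 11.02 to 11.17. Those 2 were Lin28a, at a mean level of 10.80, and Tdgf1, at 6.34, so the sum was mostly Lin28a. Pou5f1 and Nanog, at 5.86 and 6.01, were not called. The part of these shifts in the microRNA differences was not tested.

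The Mir17 cluster on chromosome 15 was the only locus with more than 1 called member. In mouse its microRNAs are known to promote proliferation and survival in several embryonic tissues. Its 6 rows lie on the plus strand between 99853735 and 99854519 in the file's coordinates, for which the sources used here name no genome build. All 6 rows were lower in every retinoic acid sample than in any control sample, and 5 of 6 were called lower. Only Mir20a and Mir92a-1 passed the level threshold.

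The last hairpin of the cluster, Mir92a-1, fell most among the members. Its control values were 7.855, 8.004 and 7.743, and its retinoic acid values 7.307, 7.034 and 7.182. The groups were separated by a gap wider than the spread within either. The difference was -0.69 ± 0.083 (SE, 3 against 3), 1.62-fold lower, with an adjusted p of 5.3e-05.

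Mir20a, whose product carries the miR-17 seed, stood at 7.294, 7.442 and 7.250 in the controls and at 6.833, 6.758 and 6.586 under retinoic acid. Every retinoic acid value lay below every control value. The difference was -0.60 ± 0.079 (SE), 1.52-fold lower, with an adjusted p of 0.000118.

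The 4 other rows of the cluster lay under the threshold. Mir18a, Mir19a and Mir19b-1 fell by 0.43, 0.42 and 0.42 log2 units, with adjusted p of 0.00127, 0.00114 and 0.00822. Mir17-1, the first hairpin, differed by -0.20 ± 0.069 (SE) with an adjusted p of 0.082 and was not called. The call of Mir19b-1 was lost without control 2, which held its highest value, 7.018.

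The 2 paralogous clusters gave no call. Mean levels on chromosome 12 lay within those of the chromosome 15 rows under the threshold (6.07 to 6.57), and levels on chromosome X lay below them. On chromosome 12 Mir106b, Mir93 and Mir25, with mean levels of 6.22, 6.52 and 6.40, lie within Mcm7, which encodes a subunit of the replicative helicase. They differed by 0.00, -0.06 and -0.10. Mcm7 itself rose by 0.27 (adjusted p 0.0133). The 5 rows of the cluster on chromosome X stood at 5.37 to 5.91, around the median of the olfactory receptor rows (5.47), so a fall may not be detectable in them. They differed by -0.18 to 0.12. No row of either paralogous cluster was a member.

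**Figure D3:**
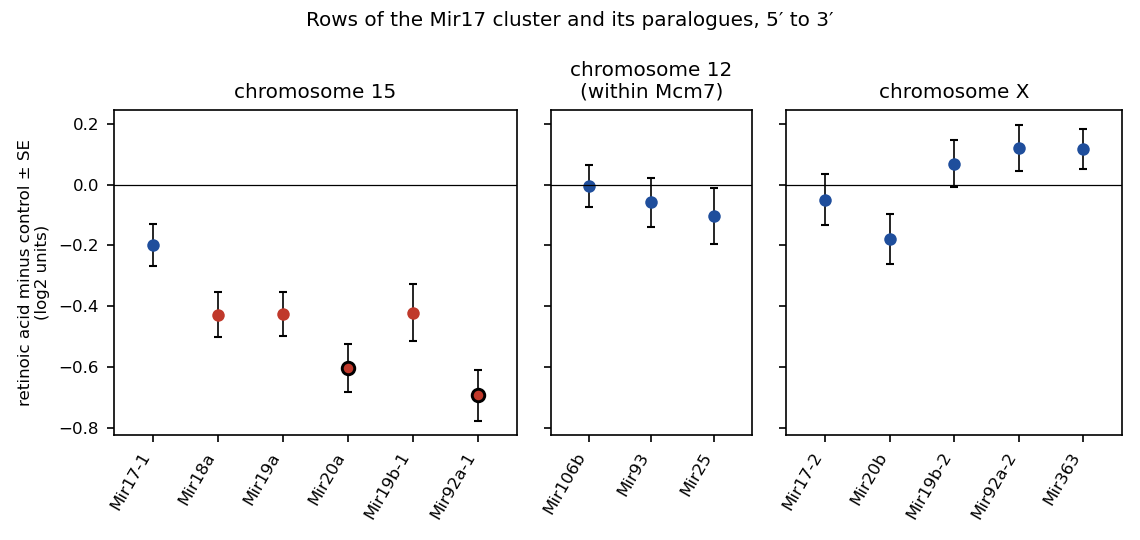
The retinoic acid minus control difference with its SE (y axis, log2 units) is shown for each hairpin row of the Mir17 cluster and its 2 paralogous clusters, in 5′ to 3′ order. The rows on chromosome 15 run from -0.20 to -0.69, while the rows on chromosomes 12 and X lie between -0.18 and 0.12. Red marks called rows and black rings mark members.

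Rows that share a seed differed in their calls. Of the 6 rows with the miR-92 seed, printed above, 1 was called, and the family median was 0.06. Mir92b, the other member, stood at 7.952, 7.976 and 7.992 in controls and at 8.196, 8.177 and 7.924 under retinoic acid. Its retinoic acid values lay on both sides of the controls, and the difference was 0.13 ± 0.077 (SE; adjusted p 0.38). Mir92a-1 minus Mir92b within each sample was -0.11 ± 0.139 (SD, n = 3) in controls and -0.93 ± 0.203 (SD, n = 3) under retinoic acid, with no overlap. Mir92a-2 on chromosome X encodes the same mature miR-92a-3p, but its row stood at a mean of 5.44, under the olfactory receptor median of 5.47. A fall may not be detectable at that level, and its difference of 0.12 is not set against Mir92a-1.

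In the miR-17 seed family 1 of 6 rows was also called, but no difference lay above 0, and the median was -0.12. Its rows Mir17-2 and Mir20b stood at 5.37 and 5.91, where a fall may not be detectable. Mir20a minus Mir93 was 0.78 ± 0.199 (SD, n = 3) in controls and 0.23 ± 0.163 (SD, n = 3) under retinoic acid. Pairs of rows were set side by side with their differences already known, so the values of each pair are a description with no test. The offset between the rows of a pair has no meaning of its own.

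Over the 35 members with mature sequences there were 55 distinct seeds. Only 2 seeds were shared by 2 members, those of miR-92 and miR-181. In all, 14 of the member seeds recurred in another microRNA row.

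The miR-181 pair lies on chromosome 19 and forms the second locus with 2 members. miR-181 is known from lymphocyte development. Mir181c stood at 7.304, 7.192 and 7.162 in controls and at 7.109, 6.989 and 7.258 under retinoic acid. Mir181d stood at 7.128, 7.097 and 7.054 in controls and at 7.015, 6.972 and 7.188 under retinoic acid. In both rows the groups overlapped because of retinoic acid 3, and the differences were -0.10 and -0.03, neither called.

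The miR-196 family is encoded within the Hox clusters and in mouse represses Hoxb8. Mir196c lies on chromosome 10, 6227 bases from Hoxb9 in the file's coordinates. It stood at 8.251, 8.205 and 8.130 in controls and at 7.530, 7.815 and 7.787 under retinoic acid. The groups did not overlap, and the row fell by 0.48 ± 0.080 (SE), 1.399-fold, with an adjusted p of 0.000819. Hoxb9, a trunk patterning gene of the same strand, rose by 0.38 ± 0.074 (SE; adjusted p 0.0030). Hoxb8 differed by 0.14 and was not called.

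The other miR-196 rows lay under the threshold. Mir196b, in the Hoxa cluster, fell by 0.35 (adjusted p 0.0184), while its neighbour Hoxa10 differed by -0.11 and was not called. Mir196a, in the Hoxc cluster, differed by -0.02 and was not called, and its neighbour Hoxc10 fell by 0.36 (adjusted p 0.0084). Mir196c minus Hoxb9 was -0.41 ± 0.056 (SD, n = 3) in controls and -1.27 ± 0.101 (SD, n = 3) under retinoic acid.

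Mir505, the row of highest mean level, lies on chromosome X at 145928998 to 145929064 on the minus strand. Its control values were 8.616, 8.831 and 8.709, and its retinoic acid values 7.952, 8.286 and 8.103. The groups did not overlap. The row fell by 0.61 ± 0.085 (SE), 1.52-fold, with an adjusted p of 0.000229. The row Mir3589 covers the same 67 bases on the other strand and differed by -0.06, which was not called. Its mean level was 5.63, close to the olfactory receptor median of 5.47, so a fall may not be detectable in it.

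Mir674, on chromosome 3, was the called row with the tightest retinoic acid values. It stood at 7.493, 7.491 and 7.601 in controls and at 7.061, 7.003 and 7.097 under retinoic acid. The row fell by 0.47 ± 0.068 (SE), 1.39-fold, with an adjusted p of 0.000273.

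Mir3582 lies within Mib1, which encodes a ubiquitin ligase needed for Notch ligand activity. It stood at 7.555, 7.588 and 7.671 in controls and at 7.181, 7.184 and 6.984 under retinoic acid. The groups did not overlap, and the row fell by 0.49 ± 0.074 (SE), 1.403-fold, with an adjusted p of 0.000408. Mib1 differed by -0.12 ± 0.069 (SE) and was not called, although every retinoic acid value of Mib1 lay below every control value.

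The strand opposite to Mir3582 holds Mir133a, the muscle microRNA whose sequence is printed above. All 21 bases of miR-133c are complementary to a run within miR-133a-3p. The row Mir133a had a mean level of 5.24, under the olfactory receptor median, and differed by 0.01, which was not called. A change may not be detectable at that level, so the row is not set against Mir3582 or the heart muscle markers.

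Annotated hairpins on both strands were common among the members. They included 11 members, each overlapped by another microRNA row on the other strand. In 2 loci both rows were members. Mir210, whose microRNA is induced by hypoxia, differed by -0.18 ± 0.068 (SE; adjusted p 0.127), and its antisense row Mir3574 by -0.09. The sequences miR-210-3p and miR-3574 are complementary over all 22 bases.

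At the second locus the differences of the rows had opposite signs. Mir219-2, which encodes a microRNA of oligodendrocyte differentiation, stood at 7.249, 7.090 and 7.198 in controls and at 7.137, 7.528 and 7.318 under retinoic acid. Mir2964, on the other strand, stood at 7.178, 7.373 and 7.259 in controls and at 7.024, 7.019 and 7.132 under retinoic acid. The first overlapped and the second did not. The differences were 0.15 (adjusted p 0.35) and -0.21 (adjusted p 0.078), and neither was called. Mir2964 was called lower in 1 of 17 settings, with only rows above the median level tested. Mir2964 minus Mir219-2 was 0.09 ± 0.179 (SD, n = 3) in controls and -0.27 ± 0.211 (SD, n = 3) under retinoic acid. None of the partners that lay under the threshold was called, namely Mir3589, Mir133a, Mir3543, Mir3120, Mir3555, Mir9-1 and Mir29c. Of these, Mir133a, Mir29c, Mir3589 and Mir3543 stood at 5.24, 5.61, 5.63 and 5.84, where a fall may not be detectable.

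Host genes were found for 13 members, as named rows that enclose the microRNA row on the same strand. Of the 13 hosts 2 rose and 2 fell, against 7.69% called higher and 2.06% lower over all tested rows. Among tested rows above 7.2 these shares were 15.5% and 2.68%. Only 2 of the 13 microRNA rows were called, Mir7a-1 and Mir3582, both lower, and neither of their hosts was called lower. Spearman's rho between the differences of microRNA and host rows was 0.06 across the 13, which share the 6 samples.

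Mir7a-1 lies within Hnrnpk, which encodes an RNA-binding protein, and its product miR-7 is known from neurons and endocrine cells. Mir7a-1 stood at 7.381, 7.296 and 7.381 in controls and at 7.211, 7.064 and 6.712 under retinoic acid. The spread was wider under retinoic acid, and the groups did not overlap. The row fell by 0.36 ± 0.097 (SE), 1.28-fold, with an adjusted p of 0.0257. This call was lost in 7 of 17 alternative settings, among them the authors' deposited table and leaving out any of control 1, control 2, control 3 or retinoic acid 3.

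Hnrnpk stood at 11.705, 11.723 and 11.591 in controls and at 11.824, 12.025 and 12.054 under retinoic acid. It rose by 0.30 ± 0.076 (SE; adjusted p 0.0189). That call did not hold without control 3, retinoic acid 2 or retinoic acid 3, nor after quantile or cyclic loess normalization. Mir7a-1 minus Hnrnpk was -4.32 ± 0.108 (SD, n = 3) in controls and -4.97 ± 0.365 (SD, n = 3) under retinoic acid. The other rows with the miR-7 seed, Mir7a-2 and Mir7b, differed by -0.03 and -0.02. Both lay at or under the level threshold, so their differences are not set against Mir7a-1.

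Mir207 lies within Dnaja1, which encodes a co-chaperone of Hsp70. Mir207 stood at 7.275, 7.117 and 7.435 in controls and at 7.637, 7.354 and 7.508 under retinoic acid, and the groups overlapped. Its difference of 0.22 ± 0.087 (SE; adjusted p 0.13) was the highest among the members, and it was called higher in 2 of 17 settings. Dnaja1 rose by 0.27 ± 0.077 (SE; adjusted p 0.0325). It was not called in 10 of 17 settings, including those without control 1, control 3, retinoic acid 2 or retinoic acid 3.

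Mir139 lies within Pde2a, which encodes a cyclic nucleotide phosphodiesterase. Mir139 differed by 0.12 ± 0.070 (SE) and was not called, while Pde2a fell by 0.28 ± 0.070 (SE; adjusted p 0.0157). Without control 1, retinoic acid 2 or retinoic acid 3 the call of Pde2a was lost. Mir139 minus Pde2a was -0.38 ± 0.052 (SD, n = 3) in controls and 0.02 ± 0.044 (SD, n = 3) under retinoic acid.

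Mir770 lies within the imprinted maternally expressed RNA Meg3, listed in the file as RGD1566401. Mir770 differed by 0.00, while the Meg3 row fell by 0.30 ± 0.072 (SE; adjusted p 0.0139). Without control 2 the Meg3 row was not called. The imprinted locus on chromosome 6 holds 44 microRNA rows, of which 2 were members. Of the 44, 6 (13.6%) were called lower and none higher, with a median of -0.09. The share called lower was 5.71% over all 368 microRNA rows and 2.06% over all tested rows. Mir127, the second member, stood at 7.022, 7.117 and 7.280 in controls and at 7.036, 6.948 and 6.886 under retinoic acid. The groups overlapped, and the difference of -0.18 had an adjusted p of 0.165.

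Mir483 lies within Igf2, the fetal growth factor gene. Mir483 stood at 7.648, 7.602 and 7.449 in controls and at 7.496, 7.167 and 7.335 under retinoic acid. The groups overlapped, the difference was -0.23 ± 0.084 (SE; adjusted p 0.097), and Igf2 differed by 0.05. Mir483 was called lower in 3 of 17 settings, among them that without retinoic acid 1. The hosts Nrd1, LOC498154, Ska2, Xkr6, RGD1310348, Nfyc and Sgcz, of Mir761, Mir339, Mir301a, Mir598, Mir185, Mir30e and Mir383, were not called either.

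**Figure D4:**
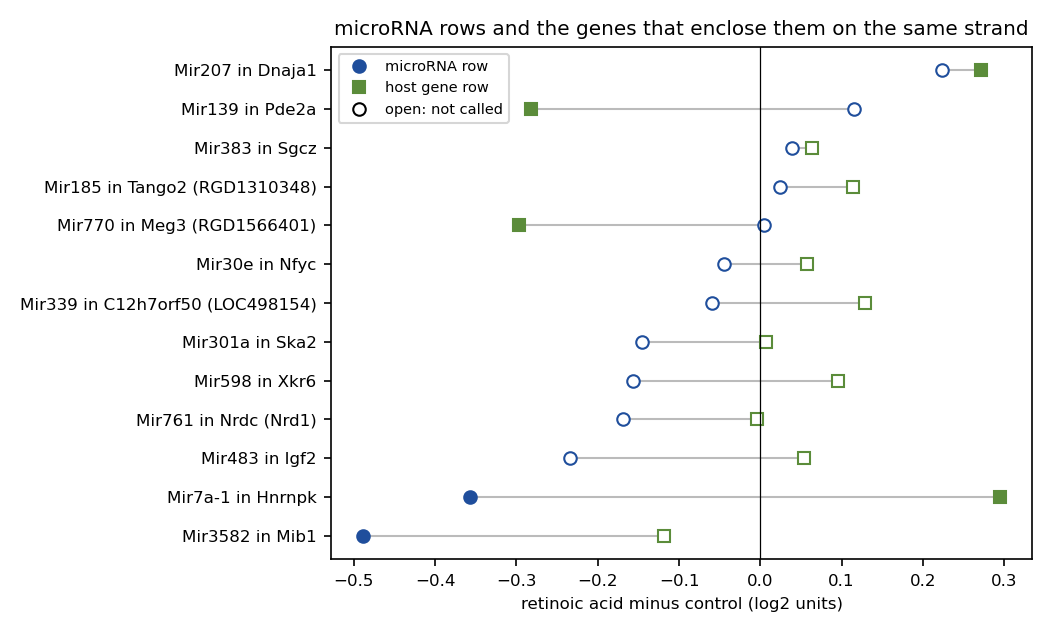
The retinoic acid minus control difference (x axis, log2 units) is shown for 13 microRNA rows (blue circles) and for their host gene rows (green squares), joined by a line, with open symbols for rows not called. The called pair Mir7a-1 and Hnrnpk lies at -0.36 and 0.30, and Pde2a and Meg3 lie near -0.30 beside uncalled microRNA rows.

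Among the uncalled members the widest differences below 0 were those of Mir3556b, Mir483, Mir2964, Mir127 and Mir210. Mir3556b, opposite to Mir29c, stood at 6.946, 6.851 and 6.997 in controls and at 6.756, 6.387 and 6.782 under retinoic acid. Retinoic acid 2 held the lowest value, and the difference was -0.29 ± 0.091 (SE; adjusted p 0.054). It passed the threshold in 6 of 17 settings. Mir598 was apart at -0.16 (adjusted p 0.22).

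The widest uncalled differences above 0 were those of Mir207, Mir1949, Mir219-2, Mir92b and Mir139. Mir1949 stood at 6.861, 6.874 and 6.857 in controls and at 7.066, 7.222 and 6.904 under retinoic acid. Its controls lay close together and every retinoic acid value lay above them. The difference was 0.20 ± 0.078 (SE; adjusted p 0.130), and without retinoic acid 3 the row was called higher.

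The brightest members after Mir505 were Mir761, Mir92b, Mir339 and Mir196c. Mir761 stood at 8.001, 8.342 and 8.104 in controls and at 8.112, 8.101 and 7.729 under retinoic acid. Mir339 stood at 8.022, 8.075 and 8.071 in controls and at 8.055, 8.045 and 7.890 under retinoic acid. Both overlapped and neither was called, with differences of -0.17 and -0.06.

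The remaining members differed by less than 0.15 either way and overlapped. They were Mir99b, Mir3577, Mir301a, Mir351, Mir324, Mir345, Mir185, Mir30e, Mir328b, Mir3574, Mir770, Mir214, Mir191, Mir3597-1, Mir143, Mir383 and Mir3569, with Mir301a lowest at -0.15 and Mir3597-1 highest at 0.11. Among them Mir99b and Mir143 belong to clusters whose other rows were not called. Mir351, of the cluster on chromosome X with Mir322 and Mir503, differed by 0.04. Mir214 and Mir191 lay opposite to Mir3120 and Mir3555.

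The hairpins of the members were richer in G and C than those of the other microRNA rows. Members were chosen by level, and Spearman's rho between GC and level was 0.53 over 334 microRNA rows. Median GC was 57.1% in 35 members and 47.7% in 299 other rows. Within the members it was 47.3% in the 6 called rows that have a RefSeq hairpin match and 58.1% in 29 uncalled rows. Spearman's rho between GC and difference was 0.40 over the 35, which share all samples. The part of base composition in the differences was not tested.

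Genes of microRNA processing were set beside the microRNA rows. Of 33 measured genes on a list of processing and effector genes, 7 (21.2%) rose, none fell, and the median difference was 0.12. Over all tested rows 7.69% were called higher and 2.06% lower. The list's median level was 9.68, and of the tested rows above 7.2 there were 15.5% called higher and 2.68% lower. Those that rose were Tardbp (0.41), Dgcr8 (0.35), Hnrnpa1 (0.31), Eri1 (0.27), Khsrp (0.26), Lin28a (0.26) and Ddx5 (0.25). Dgcr8 is the RNA-binding partner of Drosha, and Lin28a is the protein that blocks processing of let-7. Tardbp, Khsrp, Hnrnpa1 and Ddx5 encode RNA-binding proteins or helicases that act on primary hairpins, and Eri1 is an exonuclease of small RNAs. Drosha differed by 0.13, Dicer1 by 0.06 and Lin28b by 0.13, none of them called. Quantile normalization left 3 genes called higher, and leaving out control 3 or retinoic acid 1 also left 3. After cyclic loess 2 were higher and 1 lower. Ddx5 and Khsrp each lost the call in 8 of 17 settings, and Eri1 and Lin28a each in 7. After cyclic loess the difference was 0.01 for Ddx5 and 0.07 for Lin28a.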

How the data were processed

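The authors deposited 1 table of 29656 rows with 6 columns of normalized log2 values, per the file headers. The sources used here do not state the normalization, array design or genome build. Its p-value columns and its t and B score columns come from the authors, per the file headers. Limma is named, with no version, in the submitters' processing notes. A second deposited value table held identical log2 values (greatest difference 0). Columns of no sample were not found (0 others).

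Rows were fitted with limma 3.58.1 in R 4.3.3 (lmFit, eBayes, no block, 20258 named main-type rows), two-sided, and called at an adjusted p under 0.05. All 39 members matched a RefSeq gene (GRCr8) by Entrez identifier, as did 19068 tested rows. RefSeq gave names and sequences, and coordinates are those of the file. Clusters joined hairpin rows of 1 strand whose starts lay within 10 kb, and families share bases 2 to 8. Members and lists were chosen with earlier results of these data known.

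Named were called members, members of loci with 2 or more, the 3 rows nearest either side of the threshold, the 5 brightest, the 5 widest uncalled differences each way, hosts, called processing genes and Lin28a, Lin28b, Drosha, Dgcr8 and Dicer1. Other rows, such as Mir17-1, the miR-196 rows, the Hox genes, Mcm7, the paralogues and the antisense rows, were chosen after their values were seen. The deviations of samples with the same replicate number correlated at -0.11, 0.23 and 0.24, and since pair 1 did not exceed 0.1 the numbers were not taken to pair the samples. On simulated data for this comparison with 20258 rows, 10.4% of rows shifted by 0.25 log2 units, 85.1% of those shifted by 0.5 and 100% of those shifted by 1 were called, with 1.52% false calls. The shifted rows numbered 67, 67 and 66, while 1975 rows were called in the data. The adjusted p depends on how many rows differ, so these percentages need not hold for the data. The number of arrays limits the precision. Alternatives were other normalizations, a spike-in shift, trend and robust moderation, array weights, a level filter, all main-type rows, other level thresholds, a replicate block, the authors' statistics and leaving out each sample. Tables and figures used Python 3.11.15, pandas 2.3.3, scipy 1.17.1 and matplotlib 3.10.9.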

Additional observations from a re-analysis of the deposited data

How the results depend on the processing

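Of the 7 called microRNA rows 6 kept their call in every alternative run except the shift by spike-ins, and Mir7a-1 lost it in 7 of 17. Shifting each sample by the 6 bright spike-in rows of nominal ratio 1 (shifts of -0.50 to 0.35) left 0 microRNA rows called, 0 cluster rows, 0 processing genes higher and 0 hosts in either direction, with 3 rows higher and 1 lower over the whole array and a member median of -0.046. These shifts differed more between samples of 1 group than the tested medians did. With the replicate number as a block 1 microRNA row, Mir207, was higher and 9 were lower, and 5 cluster rows were lower. Pairs 2 and 3 deviated together (0.23 and 0.24) and pair 1 did not (-0.11), so the numbers were not taken to pair the samples, and control 1 correlated best with retinoic acid 2. Array weights also gave 1 higher. Quantile normalization gave 3 processing genes higher and 0 hosts higher. Cyclic loess gave 2 processing genes higher, 1 lower and 0 hosts higher. Hosts called higher numbered 1 after median centring, 1 with all main-type rows and 1 in the authors' deposited table. A filter at the median level kept 2 rows of the Mir17 cluster, and 2 were lower. A threshold of 6.2 took 94 rows, 16 lower and 1 higher, and one of 7.2 gave a median of -0.17. Leaving out 1 sample gave 0 to 1 microRNA rows higher, 6 to 9 lower, a median of -0.099 to -0.040, 4 to 5 cluster rows lower, 3 to 5 processing genes higher, 0 to 2 hosts higher and 1 to 2 lower. Where no cause is stated it was not tested. No row changed sign between calls. Array values carry no read depth, and no signal over background is given.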
